A study of Mus musculus with 2 samples.

Results

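Mir140, Mir199a-1, Mir199a-2, Mir199b and Mir214 are 5 of the 1973 microRNA (miRNA) genes counted in small RNA from mouse embryonic midbrain. They were taken by gene symbol, as miRNAs known from mesenchyme, the loose connective tissue that forms cartilage, bone and the membranes around the brain. All 5 were found in the count tables, and 4 of them had at least 1 read in both libraries. The libraries hold RNA shorter than 30 bases from the whole dissected midbrain of healthy B6NCrl embryos at 15.5 days, males and females pooled, with no treatment or mutation. Replicate 1 is a pool of 78 embryos and replicate 2 a pool of 62. Both belong to the same group, so the data can show how much of each miRNA was counted and how far the pools differed, and they hold no contrast between conditions.

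A miRNA gene is transcribed as part of a longer RNA, from which a hairpin is cut and then trimmed to mature strands, the 5p and 3p arms. A mature miRNA pairs with messenger RNAs mainly through its seed, bases 2 to 8 from its 5′ end, and lowers their output. Mir140 is best known as a cartilage miRNA, although it and its host gene Wwp2 are also found in other tissues. Mir199a-2 and Mir214 are made from the noncoding RNA Dnm3os, which is active in embryonic mesenchyme, and mice without it have defects of the skeleton and skull. The Mir199 genes lie within dynamin genes, which encode membrane-fission proteins, on the strand opposite to them.

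The mature arms are shown because their seeds group the genes and because the arms of the Mir199 genes are partly identical. The sequences are those of RefSeq on GRCm38.p6 (mm10), written 5′ to 3′ with the seed in capitals. All 5 hairpins were matched there, and 8 entries for arms of these genes. The arms miR-140-5p and miR-199b-5p had no entry there, so they are not printed and their seeds were not searched.
miR-140-3p (Mir140): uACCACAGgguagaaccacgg
miR-199a-5p (Mir199a-1 and Mir199a-2): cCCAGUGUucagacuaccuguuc
miR-199a-3p (Mir199a-1 and Mir199a-2): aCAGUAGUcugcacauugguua
miR-199b-3p (Mir199b): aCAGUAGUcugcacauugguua
miR-214-5p (Mir214): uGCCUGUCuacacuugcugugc
miR-214-3p (Mir214): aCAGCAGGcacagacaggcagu

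The arms listed above fell into 5 seeds, and the 3 Mir199 genes shared the 3p seed CAGUAGU through an arm that was the same in all its letters. Among the 1738 mature entries of the table, no gene outside the Mir199 group carried either of the Mir199 seeds listed. The seed of miR-140-3p, ACCACAG, was also that of miR-497b, and the seed of miR-214-3p, CAGCAGG, was also that of miR-761. Neither Mir497b nor Mir761 had a read in either library, so each was at or under the floor of 3 counts, which is 0.875 CPM in replicate 1 and 0.522 CPM in replicate 2. CPM here is the number of reads on the sense strand of a gene per 1000000 such reads over all genes.

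The hairpins of the 3 Mir199 genes are shown because their identity bears on every Mir199 value that follows. Capitals mark the mature arms listed in the table.
Mir199a-1 hairpin: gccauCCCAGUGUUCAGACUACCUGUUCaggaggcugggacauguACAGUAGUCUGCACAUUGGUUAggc
Mir199a-2 hairpin: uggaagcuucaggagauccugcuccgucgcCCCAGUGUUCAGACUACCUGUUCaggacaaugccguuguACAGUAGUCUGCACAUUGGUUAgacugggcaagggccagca
Mir199b hairpin: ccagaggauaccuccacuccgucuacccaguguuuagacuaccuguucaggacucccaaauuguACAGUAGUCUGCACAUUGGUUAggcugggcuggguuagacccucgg

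The 3p arm was found whole in all 3 Mir199 hairpins, and miR-199a-5p was found whole in 2, those of Mir199a-1 and Mir199a-2. The closest match of miR-199a-5p in the Mir199b hairpin, at bases 26 to 48, differed by 1 substitution, C10U, with positions counted from 1 at the 5′ end of miR-199a-5p. That position is outside the seed, so the bases matching the seed were the same. The Mir199a-1 hairpin shared bases 6 to 32 and 43 to 70 with another miRNA hairpin, in stretches of at least 20 bases. The Mir199a-2 hairpin shared bases 31 to 57 and 66 to 92, so that in both genes each mature arm lay wholly inside a shared stretch. The Mir199b hairpin shared bases 61 to 89 only, around its 3p arm. Among the 1005 hairpins of the table, the only ones that shared such a stretch with a Mir199 hairpin were the other Mir199 hairpins. The hairpins of Mir140 and Mir214 shared no 20 bases with any other hairpin of the table, and each of their listed arms was held by 1 hairpin.

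**Figure D1:**
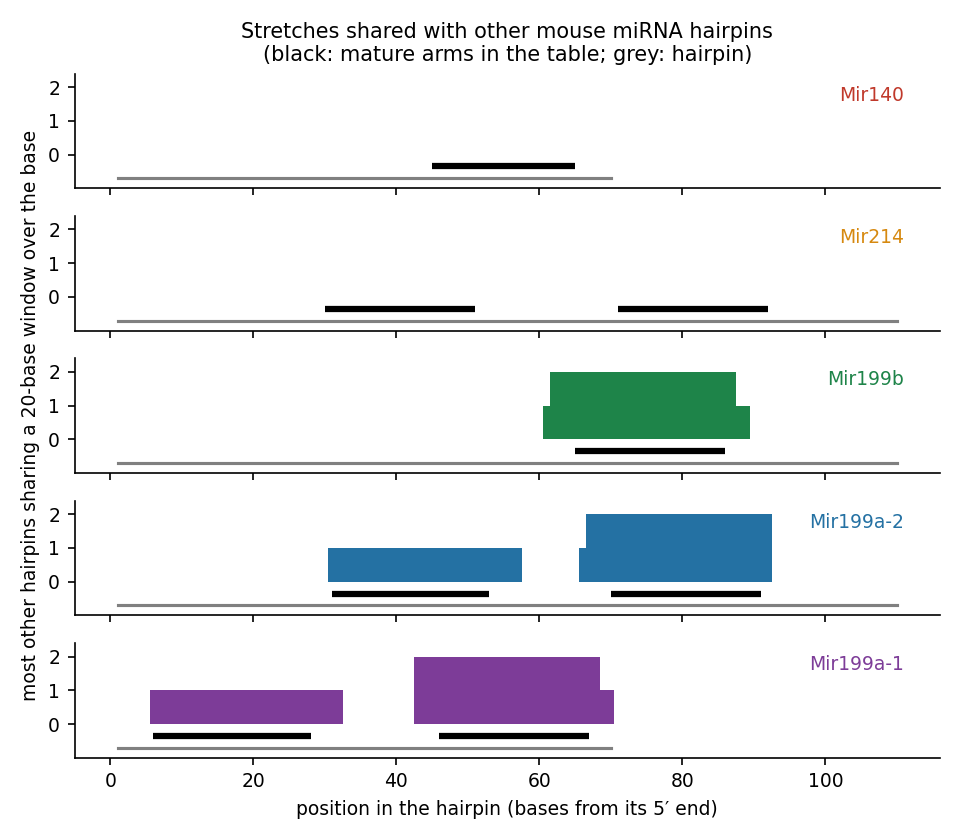
For each hairpin, the height at a base (x axis, bases from the 5′ end) is the largest number of other miRNA hairpins of the RefSeq table that share a 20-base stretch covering it. Black bars mark the mature arms in the table and grey lines the hairpin. Both arms of Mir199a-1 and Mir199a-2 are covered, Mir199b is covered from base 61 to 89, and Mir140 and Mir214 are not covered at all.

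Reads that map to several places are tallied in a row of their own in the deposited tables, whose layout is that of STAR gene counts, a format that gives them to no gene. That row held 2847913 reads in replicate 1 and 4694526 in replicate 2, or 0.830 and 0.816 times the sense reads of all miRNA genes. How many of them came from Mir199 arms is not given in these files. That such reads go to no gene is read from this layout, since no source used here names the aligner or counter. If so, the counts of Mir199a-1 and Mir199a-2 can hold only reads that reach beyond the shared stretches or differ from them, and those of Mir199b leave out its exact 3p arm. The totals on the sense strand were 3429704 reads in replicate 1 and 5752476 in replicate 2, so that a single read was worth 0.292 and 0.174 CPM.

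Mir140 was far above the other genes, with 12661 reads (3692 CPM) in replicate 1 and 21120 reads (3671 CPM) in replicate 2. The mean was 3682 ± 14.2 CPM (SD, n = 2), rank 49 of the 1973 genes. The value of each library lay inside the counting interval of the other, which ran from 3628 to 3756 CPM in replicate 1 and from 3622 to 3721 in replicate 2 (95% exact Poisson, covering counting error only, as do all intervals here). Mir140 lies at chr8:107551244-107551313 of mm10, on the plus strand as is Wwp2. It is in an intron of 3 annotated Wwp2 transcripts and overlaps an exon of 1.

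Mir214 was second, with 765 reads (223 CPM) in replicate 1 and 1225 reads (213 CPM) in replicate 2. Its mean of 218 ± 7.14 CPM placed it at rank 167. In both libraries it was below Mir140 by a wide margin, the read ratio of Mir140 to Mir214 being 16.6 (95% interval 15.4 to 17.8) and 17.2 (16.3 to 18.3). Mir214 lies at chr1:162223368-162223477 on the plus strand, in an exon of 2 Dnm3os transcripts and, on the other strand, inside an intron of 4 Dnm3 transcripts.

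Mir199b was the only Mir199 gene above 10 CPM, at 294 reads (85.7 CPM) and 517 reads (89.9 CPM) in replicates 1 and 2. The mean was 87.8 ± 2.94 CPM, at rank 209. Mir214 exceeded it in reads by 2.60 times (2.27 to 2.99) in replicate 1 and 2.37 times (2.14 to 2.63) in replicate 2. If reads with several places go to no gene, the Mir199b counts leave out its exact 3p arm. These ratios are then of the reads counted and not of the amounts of the mature strands. The Mir199b gene lies at chr2:32318460-32318569 on the plus strand, inside an intron of 10 transcripts of Dnm1, which is on the minus strand. No host on its own strand is annotated there. The miRNA gene annotated nearest on its strand, Gm23363, is 117 bases away and had no reads.

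Mir199a-2 and Mir199a-1, whose arms are copies of each other, were at the low end of the reads counted. If reads with several places go to no gene, these counts leave out exact reads of both arms. Mir199a-2 had 20 reads (5.83 CPM, 95% interval 3.56 to 9.01) in replicate 1 and 25 reads (4.35 CPM, 2.81 to 6.42) in replicate 2, with a mean of 5.09 ± 1.05 CPM at rank 334. Mir199a-1 had no read in replicate 1 and 4 reads in replicate 2 (0.695 CPM, 0.189 to 1.78). At the depth of replicate 1 those 4 reads correspond to 2.38, under the floor of 3, so the level in replicate 2 and the absence of reads in replicate 1 could not be told apart beyond counting error. Mir199a-2 lies at chr1:162217814-162217923 in an exon of 3 Dnm3os transcripts, and Mir199a-1 at chr9:21496495-21496564 on the minus strand, inside an intron of 10 transcripts of the plus-strand gene Dnm2.

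**Figure D2:**
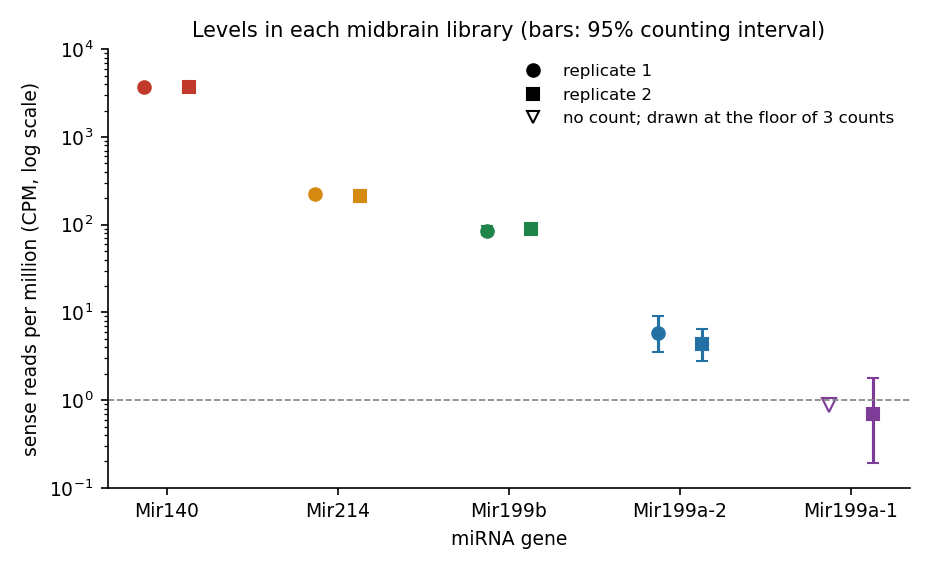
Level of each gene in CPM (y axis, log scale) in replicate 1 (circles) and replicate 2 (squares), with 95% counting intervals and a dashed line at 1 CPM. An open triangle marks the library without a read, drawn at its floor of 3 counts (0.875 CPM). The counting intervals of the libraries overlap for each gene from Mir140 at 3682 CPM down to Mir199a-2 at 5.09 CPM. The Mir199 counts leave out reads with several places if such reads go to no gene.

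The order Mir140, Mir214, Mir199b, Mir199a-2, Mir199a-1 was the same in both libraries, and no counting interval of a gene overlapped that of the next gene in the same library. Replicates of neighbouring genes did not overlap either. With 2 libraries per gene, a two-sided exact permutation test of such a step that takes the values as unpaired cannot give a p below 0.333. The genes of a step were counted in the same libraries, and no paired test was run. Reads of miRNAs are of arm length and the CPM values are not divided by gene length. Per 100 bases of annotated hairpin (70 for Mir140 and Mir199a-1, 110 for the others) the mean CPM values were 5259, 198, 79.8, 4.63 and 0.497, in the same order. The steps from Mir214 to Mir199b and from Mir199b to the Mir199a genes compare genes that differ in how much of their sequence is shared. The part of that in the steps was not tested.

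The pair on Dnm3os, Mir199a-2 and Mir214, is separated by 5445 bases and each is the other's nearest measured miRNA gene on that strand. Although they share a host, Mir214 had 38.3 times (24.6 to 63.0) the reads of Mir199a-2 in replicate 1 and 49.0 times (33.0 to 76.0) in replicate 2. The mean ratio was 43.6 ± 7.60 (SD, n = 2), and the intervals of the libraries overlap. Among the miRNA hairpins searched, Mir214 has both of its listed arms to itself, while Mir199a-2 has neither. Other places in the genome were not searched. Under the reading of the layout given above, the ratio is one of uniquely placed reads and not of the amounts of the mature strands.

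Reads on the strand opposite to the members were nearly absent. Mir214 had 2 in replicate 1 and 1 in replicate 2, under the floor, and the other 4 genes had none in either library. No miRNA gene is annotated on the strand opposite to any of the 5. Apart from those 2 reads and 1 read, all reads counted at Mir199a-1, Mir199a-2, Mir199b and Mir214 lay on the strand opposite to the dynamin genes around them.

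Together the 5 genes held 0.401% of sense reads in replicate 1 (13740 reads, 95% exact interval 0.394 to 0.407) and 0.398% in replicate 2 (22891 reads, 0.393 to 0.403). The mean was 0.399 ± 0.00190%. Mir140 supplied 92.1% and 92.3% of it, Mir214 5.57% and 5.35%, and Mir199b 2.14% and 2.26%. Without Mir140 the other genes summed to 315 and 308 CPM, a mean of 311 ± 4.76 CPM. The sum of the reads counted is thus largely a measure of Mir140. Reads of the shared Mir199 arms are missing from it if reads with several places go to no gene, and their number is not given. A level of at least 1 CPM in both libraries was reached by 4 of the 5, all but Mir199a-1, where 22.5% of all 1973 genes reached it. Of the 1973 genes, 717 had a read in at least 1 library. The members were chosen with earlier results of these data known, so this comparison describes detection and is not a test.

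**Figure D3:**
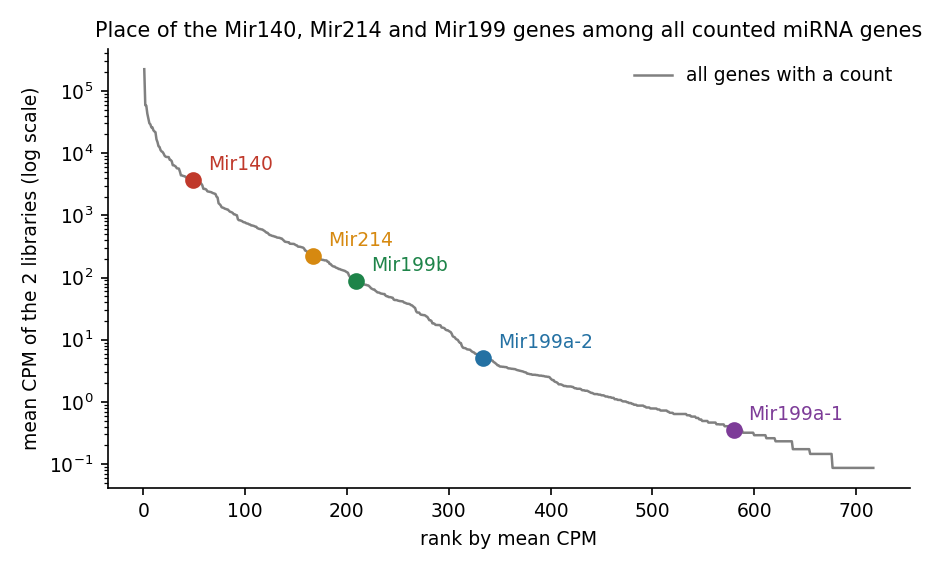
Mean CPM of the libraries (y axis, log scale) against rank (x axis) for the 717 genes with a read, drawn as a line. The dots place Mir140 at rank 49, Mir214 at 167, Mir199b at 209, Mir199a-2 at 334 and Mir199a-1 at 580. The Mir199 counts leave out reads with several places if such reads go to no gene.

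Genes closest in mean level were named as a guide to the scale, over the same libraries. Mir140 stood between Mir296 (3703 ± 281 CPM) and Mir708 (3642 ± 316 CPM), and the differences were smaller than the spread of either. Mir214 stood between Mir1306 (221 ± 6.41 CPM) and Mir667 (218 ± 23.0 CPM), and Mir199b between Mir670 (89.2 ± 4.51 CPM) and Mir192 (87.2 ± 2.08 CPM), also within their spread. Mir199a-2 lay between Mir499 (5.14 ± 2.32 CPM) and Mir511 (5.00 ± 1.17 CPM). Mir199a-1 came after Mir7049 (2 reads and 1 read) and level with Mir291b, which likewise had 0 and 4 reads. None of these differed from the neighbouring member by more than its own SD. The SD of Mir140 itself, 14.2 CPM, was smaller than its distance from either neighbour. Nearness in level says nothing of a shared function.

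Between the pools, no member was called different at an adjusted p under 0.05 in a two-sided conditional exact binomial test, where 19.8% of the 717 genes with a read were called. Unadjusted, 1 of 5 had a p under 0.05, and edgeR's exact test with a coefficient of variation of 10% called 0 of 5, with 0 at an unadjusted p under 0.05, where it called 0.418% of the 717 genes, or 3. The test compares these libraries and no conditions, and its power follows the depth of each gene. For Mir140 the log2 ratio of replicate 2 to replicate 1 was -0.041 after TMM scaling (95% counting interval -0.073 to -0.0095, exact binomial p = 0.0110, adjusted p = 0.0542). That call depended on the setting: with DESeq2 size factors the log2 ratio was -0.047 and the adjusted exact binomial p was 0.0202, and with genes averaging under 1 CPM left out it was 0.0358. Those settings called 19.9% of 717 genes and 32.1% of 474. Under the other settings in which it was tested the adjusted exact binomial p of Mir140 was 0.0731 without regard to strand and 0.920 with total counts as library size.

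The other members had wider intervals, all of which included 0. The log2 ratio was -0.10 for Mir214 (-0.23 to 0.032, adjusted exact binomial p = 0.387) and 0.034 for Mir199b (-0.17 to 0.25, adjusted exact binomial p = 1). It was -0.38 for Mir199a-2 (-1.36 to 0.47, adjusted exact binomial p = 0.623). For Mir199a-1, with 0 and 4 reads, the adjusted exact binomial p was 0.623 and no fold is given. The median absolute log2 ratio was 0.12 over the 203 genes averaging 100 CPM or more and 0.16 over the 474 averaging 1 CPM or more. Mir140, Mir214 and Mir199b lay closer to equal levels than that, and Mir199a-2 did not.

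**Figure D4:**
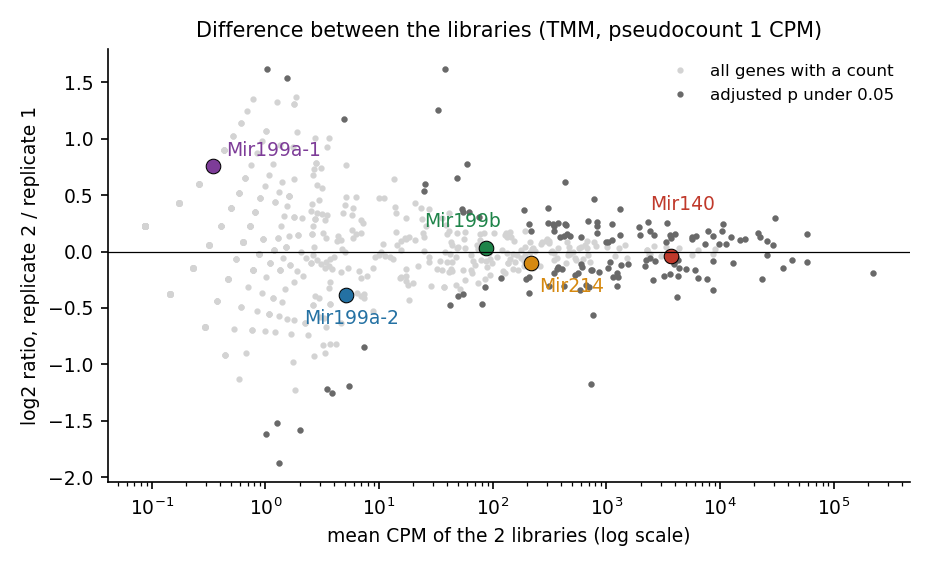
Log2 ratio of replicate 2 to replicate 1 (y axis, TMM, pseudocount 1 CPM) against mean CPM (x axis, log scale). Light dots are genes with a read, dark dots those with an adjusted p under 0.05, and the coloured dots the 5 genes. Mir140, Mir214 and Mir199b lie near 0, and the scatter of all genes widens at low CPM, where Mir199a-2 and Mir199a-1 lie.

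A list of other miRNAs linked to cartilage and connective tissue was also counted. Whether its genes are particular to those tissues was not tested. Mir455, which lies in the cartilage collagen gene Col27a1, had 234 and 216 CPM (225 ± 12.4), close to Mir214. Mir483 of the Igf2 gene had 134 and 121 CPM, Mir152 had 41.4 and 33.9 CPM, and Mir675 of the H19 RNA had 7.58 and 6.43 CPM. All 4 were above 1 CPM in both libraries and 0 of 4 was called different between them in either direction, beside 19.8% of all genes, with a median log2 ratio of -0.21 against -0.0023 over those 474 genes. The list summed to 397 ± 28.2 CPM, against 311 ± 4.76 CPM for Mir214 and the Mir199 genes together. The second sum leaves out reads of the shared Mir199 arms if reads with several places go to no gene. Mir140 was above both sums in each library.

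These libraries come from whole tissue, in which fewer cells of a type and less RNA per cell cannot be told apart, and no value here shows which cells held the reads. Markers of other cells in the dissection were present too. Mir143 of the vessel wall had 6322 and 5794 CPM and Mir145a 70.0 and 74.6 CPM, while endothelial Mir126a had 24909 and 21568 CPM. The neuronal genes Mir137, Mir153, Mir128-1 and Mir128-2 summed to 16173 and 17488 CPM, above the members in both libraries. Red cell genes (Mir451a, Mir144 and Mir486) summed to 197 and 208 CPM.

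The epithelial genes Mir200a, Mir200b, Mir200c, Mir141, Mir429, Mir203 and Mir205 summed to 657 and 803 CPM, and 601 ± 47.2 CPM of that was Mir203. Of the skeletal muscle genes, Mir1a-1, Mir133a-1 and Mir133a-2 had no read, Mir133b had 1 read in replicate 1 and 0 in replicate 2, and Mir206 had 11.7 and 16.0 CPM. Mir1a-2 was not matched by symbol. Shared sequence was searched for the members only. Counts of genes on all these lists may therefore also leave out reads with several places, if such reads go to no gene. In the exact binomial test, Mir143 and Mir126a were higher in replicate 1, and 3 of 4 neuronal and 3 of 7 epithelial genes were higher in replicate 2, with none of either list called lower. Of all 717 genes, 9.76% were called higher in replicate 2 and 10% higher in replicate 1, and of the 203 averaging 100 CPM or more, 116 were called in either direction. The summed level of the members was 4006 CPM in replicate 1 and 3979 CPM in replicate 2. That sum is scaled by total counts and was not tested. The calls use TMM scaling, so the sum and the calls are unlike measures. The part of vessel wall, skin or skull tissue in the members' reads was not tested.

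**Figure D5:**
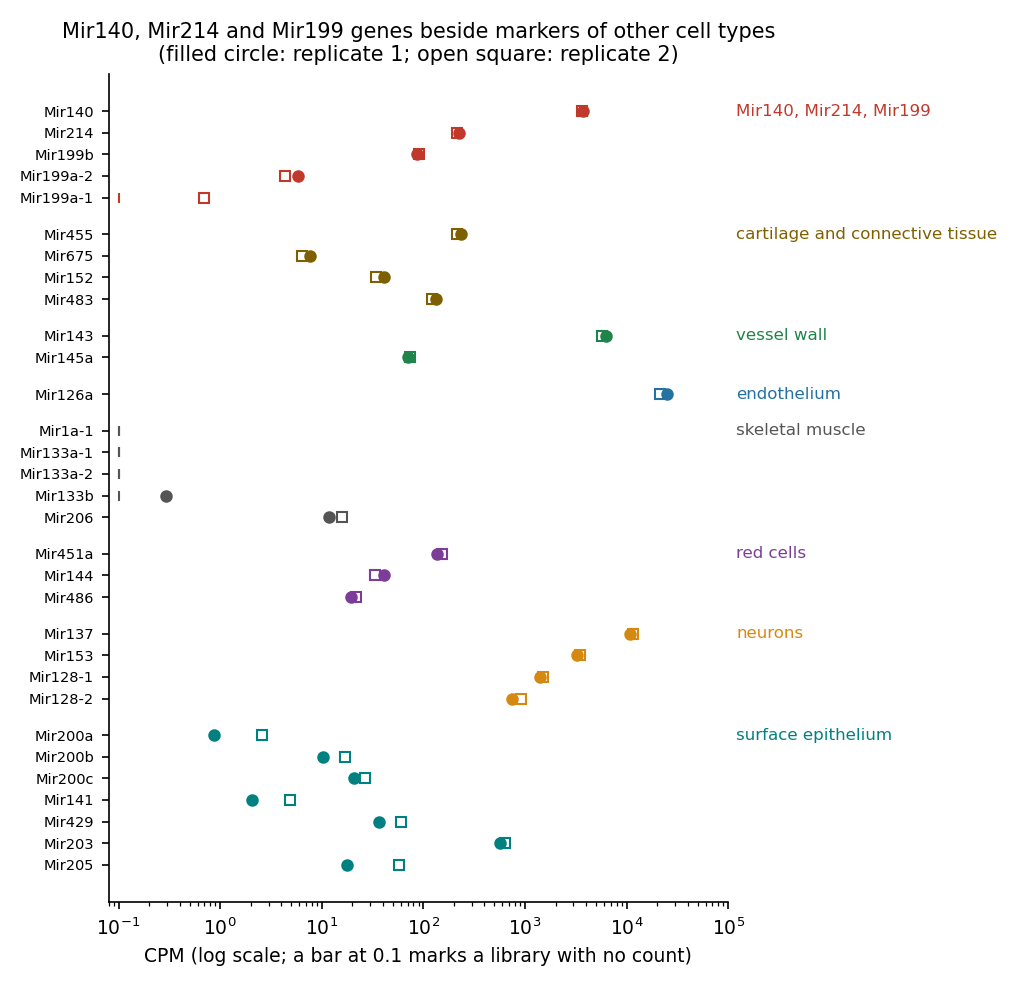
CPM (x axis, log scale) of the 5 genes and of each list gene in replicate 1 (filled circles) and replicate 2 (open squares), with a bar at 0.1 for a library without a read. Mir140 lies between Mir143 and Mir153, Mir214 beside Mir455, and 3 muscle genes have no read counted. Shared sequence was not searched for the list genes.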

How the data were processed

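Small RNA reads of 2 midbrain libraries were used as the authors deposited them, as whole read counts per miRNA gene without normalization. Per the deposited readme text, they were made on mm10 with GENCODE annotation M4. No source used here names the aligner or counter. Each table has 3 count columns (either strand, sense, opposite) and 4 rows that name no gene, which were kept out of totals. In replicates 1 and 2 these rows held 13.4% and 16.9% of all reads as unmapped, 37.7% and 35.8% as mapping to several places and 3.57% and 3.43% as outside genes. The sense column gave 3429704 and 5752476 reads.

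Identifiers were given symbols and positions from GENCODE M21 on the same assembly (1894 of 1973 matched). Sequences came from RefSeq GRCm38.p6, whose hairpin coordinates equalled those of GENCODE for all 5 genes. Sharing was searched in windows of 20 bases on both strands, among miRNA hairpins only. Library ratios used TMM (edgeR 4.0.16) with a pseudocount of 1 CPM. The conditional exact binomial test was adjusted by Benjamini-Hochberg over the 717 genes with a read. It was also run on simulated counts with set changes and counting error only. That run cannot show how the test behaves when libraries vary beyond counting error. edgeR's quasi-likelihood test could not be used, since there is 1 group. Alternatives were DESeq2 1.42.0 size factors, total counts, all mapped reads, either strand, filters, pseudocounts of 0.1 and 10, limits of 0.5 and 10 CPM, a fixed variation of 10% and leaving out a replicate. Named were the members, all genes of the lists, the genes next in mean level, and those sharing a seed or overlapping on the other strand. Hosts and Gm23363 were named beside them after positions were seen. The members and lists were chosen with earlier results of these data known. The labels call the libraries biological replicates.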

Additional observations from a re-analysis of the deposited data

How the results depend on the processing

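The share of the 5 genes was 0.399% of sense reads, 0.390% with counts without regard to strand and 0.210% of all mapped reads, in which reads with several places enter the total. With TMM or DESeq2 library sizes it moved by less than 1 SD, and leaving out a replicate gave 0.398% to 0.401%. Of 20 mean levels recomputed without leaving out a library, 5 moved by more than 1 SD, 4 of them downward with all mapped reads as the total. The number of genes called different between the libraries was 0, and 1 with DESeq2 size factors or with genes under 1 CPM left out, Mir140 in both. Of all genes those settings called 19.9% and 32.1%, against 19.8%. No log2 ratio changed sign under the settings run. The number of genes at 1 CPM in both libraries was 4 under the settings run except a limit of 10 CPM, where it was 3. No contrast between conditions, paired or not, was possible because there is only 1 group. Ratios between the libraries cannot be had when a replicate is left out. Low counts limit how closely the levels of Mir199a-1 and Mir199a-2 are known. Reads with several places are missing from all Mir199 counts if such reads go to no gene, and their number is not given.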
